A study of Mus musculus with 8 samples.

Results

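The 43 genes of chondroitin sulfate and heparan sulfate synthesis were followed in cells of WT and S89G-DMP1 mice. The members were taken by symbol: the enzymes of the linker that joins a chain to its core protein, the polymerases of each chain, the sulfotransferases and epimerases that modify the chains, the extracellular 6-O-endosulfatases, and the suppliers of the activated sulfate and sugar. All 43 symbols matched a gene among the 47729 of the neural stem cell (NSC) count table and the 40562 of the astrocyte (AST) count table. RNA of 8 cultures was sequenced. NSCs from the subventricular zone were grown as neurospheres in DMEM/F12 with N2 (3 WT and 3 S89G-DMP1 libraries), and cortical astrocytes in DMEM with serum (1 WT and 1 S89G-DMP1 library). The labels gave C57BL/6 as the strain and 10 weeks as the age of every sample. The labels said neither whether the 3 libraries of a genotype came from separate cultures or animals nor how many mice were pooled, so p-values measure only the spread between these libraries, which may be technical.

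S89G-DMP1 is a knock-in allele of Dmp1, which encodes dentin matrix protein 1, a secreted acidic protein whose N-terminal fragment carries chondroitin sulfate. Codon 89, which is changed from serine to glycine in these mice, lies in exon 6 of Dmp1 (GRCm38, plus strand, chr5:104211712-104211738 shown, with the WT serine codon in capitals):

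Dmp1 codon 89: gctggtggactcTCTaagagtacgggg

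The allele was made by homologous recombination in C57BL/6J embryonic stem cells and bred to homozygosity, with a selection cassette placed downstream of the exon and later removed. It is not restricted to a cell type. The study's methods gave 3 months and both sexes for the mice of the astrocyte cultures. The tables hold no reads, and which base each library carries was not analysed here.

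Both chains are built in the Golgi on a shared tetrasaccharide linker that starts with xylose on a serine of the core protein. The first hexosamine then decides the chain: N-acetylgalactosamine starts chondroitin sulfate, and N-acetylglucosamine starts heparan sulfate. Sulfotransferases and epimerases write the pattern of charges that growth factors, morphogens and matrix proteins bind, and the Sulf enzymes edit it outside the cell. In brain, chondroitin sulfate proteoglycans fill the matrix around neural stem cells, and heparan sulfate presents FGF and Wnt ligands.

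The NSC count columns summed to 2354615 to 2588130 reads, the WT astrocyte column to 14008670 and the S89G-DMP1 astrocyte column to 13016924. The NSC libraries of 1 genotype were close to sampling noise, with a chi-square per gene of 1.07 to 1.51 against 3.17 to 4.06 between genotypes. Dmp1 itself had 16 to 21 counts in the WT NSC libraries and 3 to 6 in the S89G-DMP1 NSC libraries. In the astrocyte libraries it had 2 counts in WT and 119 in S89G-DMP1, the opposite direction. As these are bulk samples, fewer cells of a type and less RNA per cell cannot be told apart.

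In NSCs, 7 of the 36 members that could be tested fell in S89G-DMP1 and 0 rose. The members that fell were Sulf2, Ust, Extl3, Xylt1, Csgalnact1, Chst7 and Ndst2. Of these, Csgalnact1, Chst7 and Ndst2 kept the call in only 7, 7 and 6 of 15 alternative fits. Genotypes were compared with the quasi-likelihood test of edgeR, and a call was a Benjamini-Hochberg adjusted p under 0.05 over all genes tested. Of the 11194 genes tested, 15.8% were called, 7.08% higher and 8.76% lower, against 19.4% of the members, so the share of members called was near that of all genes. The median log2 fold change of the tested members was -0.17, against 0.0026 over all tested genes, and 28 members were below 0 and 8 above. At an unadjusted p under 0.05, 2 members were higher and 11 lower. DESeq2 called 4 lower and 0 higher. Limma on the deposited TPM values, where 26 genes were higher and 96 lower in all at log2(TPM + 1), called only Sulf2 among the members. The libraries of the genotypes did not overlap for 10 members, against 30.7% of all tested genes.

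**Figure D1:**
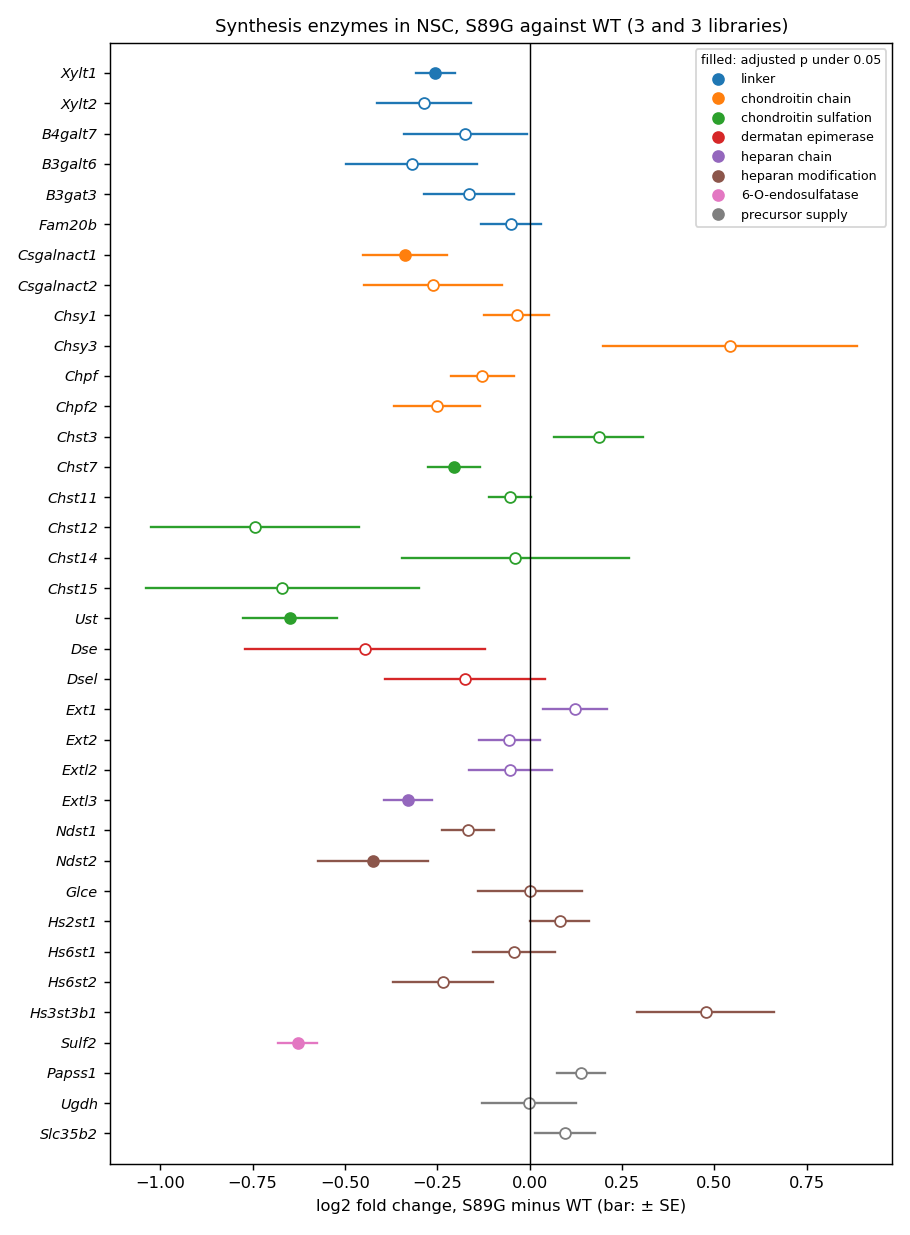
Log2 fold change of S89G-DMP1 against WT NSCs for the 36 tested members (horizontal axis), in the order of the synthesis steps (colours); bars are ± 1 SE from edgeR and filled points passed an adjusted p of 0.05. The 7 filled points all lie left of 0, and 28 of the 36 points do.

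The other 7 members were too low for the test in NSCs. Chst13, a chondroitin 4-O-sulfotransferase, and Ndst3, a heparan N-deacetylase and N-sulfotransferase, had 0 counts in all 6 libraries, which allows a level of up to 1.16 to 1.27 CPM (read counts relative to the scaled library total). Extl1 had 2 to 8 counts per library, and Hs6st3, Hs3st1, Sulf1 and Papss2 had 0 to 5. A change in these 7 was not detectable at this depth.

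All 6 linker enzymes had log2 fold changes below 0, and 1 was called. Xylt1, 1 of the pair of xylosyltransferases that place the first sugar on the core protein, had 653, 626 and 675 CPM in the WT libraries and 582, 542 and 513 CPM in the S89G-DMP1 libraries. The genotypes did not overlap. Its log2 fold change was -0.26 ± 0.05 (SE; adjusted p = 2.0e-04, edgeR's quasi-likelihood test). Xylt1 was the main xylosyltransferase transcript of the NSCs: per length, it made 89.8 to 91.8% of the summed level of Xylt1 and Xylt2 in WT and 90.5 to 91.7% in S89G-DMP1, ranges that overlap. Xylt2 had a log2 fold change of -0.29 ± 0.13 and did not pass the test (adjusted p = 0.126). The galactosyltransferases B4galt7 and B3galt6, the glucuronosyltransferase B3gat3 and the xylose kinase Fam20b lay between -0.32 and -0.05 and were not called, with adjusted p from 0.233 to 0.744.

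Among the 6 members that start and extend the chondroitin chain, 1 fell. Csgalnact1, which adds the first N-acetylgalactosamine, had 56.9, 53.6 and 52.7 CPM in WT and 49.3, 39.4 and 40.5 in S89G-DMP1 NSCs, with no overlap. The log2 fold change was -0.34 ± 0.11 (adjusted p = 0.031, edgeR). This call was lost in 8 of 15 alternative fits, among them DESeq2 (adjusted p = 0.229) and the fits without S89G-DMP1 replicate 2 or 3 or WT replicate 1 or 2, where it lay between 0.057 and 0.155. The polymerase subunits Chsy1 (-0.04), Chpf (-0.13) and Chpf2 (-0.25) were not called. Chpf2 did not overlap between genotypes (48.9 to 52.3 CPM in WT and 36.5 to 46.2 in S89G-DMP1) but had an adjusted p of 0.142. Chsy3, with 2.72 to 6.02 CPM over the 6 libraries, gave 0.54 ± 0.34 (adjusted p = 0.315).

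In chondroitin sulfation, the 2-O-sulfotransferase Ust fell, and the 6-O-sulfotransferase Chst7 was called lower with less certainty. Ust, the enzyme that places 2-O-sulfate on uronic acid, had 45.5, 42.0 and 47.9 CPM in WT and 29.1, 27.4 and 29.7 in S89G-DMP1. Every S89G-DMP1 library lay below every WT library. WT was 1.57-fold higher, a log2 fold change of -0.65 ± 0.13 (adjusted p = 9.95e-05, edgeR). Ust remained called in all 6 fits without 1 library and in DESeq2 (adjusted p = 0.00664).

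Chst7, which places 6-O-sulfate on N-acetylgalactosamine, had 172, 192 and 199 CPM in WT and 174, 165 and 150 in S89G-DMP1, and here the genotypes overlapped. Its log2 fold change was -0.21 ± 0.07 (adjusted p = 0.032, edgeR). It lost the call in DESeq2 (adjusted p = 0.210) and in 4 of the 6 fits without 1 library, the exceptions being those without S89G-DMP1 replicate 1 and without WT replicate 1. In the TPM values that the authors deposited its direction turned, with a log2 difference of 0.36 on the log2(TPM + 1) scale (adjusted p = 0.467, limma). Chst7 is X-linked (chrX:20059560-20097521, GRCm38), and all 6 NSC libraries held both Xist (2718 to 3001 counts) and Y-linked transcripts such as Ddx3y (45 to 77 counts). The Y-linked Uba1y differed between genotypes, with 58 to 68 counts in WT and 0 to 3 in S89G-DMP1.

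The remaining sulfotransferases of chondroitin did not pass the test. Chst11, the 4-O-sulfotransferase with the highest level per length (58.6 CPM per kilobase in WT), had 306 to 334 CPM in WT and 307 to 316 in S89G-DMP1 (log2 fold change -0.05 ± 0.06, adjusted p = 0.604). Chst12 had 7.16 to 11.2 CPM in WT and 3.42 to 8.02 in S89G-DMP1 and a larger but less certain log2 fold change, -0.74 ± 0.28 (adjusted p = 0.062). Chst3 (0.19), the dermatan 4-O-sulfotransferase Chst14 (-0.04) and Chst15 (-0.67), which adds a further sulfate to 4-O-sulfated units, had adjusted p of 0.331, 0.955 and 0.232.

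The ratio of 6-O to 4-O sulfotransferase transcripts bears on whether N-acetylgalactosamine carries 6-O- or 4-O-sulfate. Per length, the 6-O enzymes Chst3 and Chst7 made 59.3, 58.3 and 59.5% of the summed level of Chst3, Chst7, Chst11, Chst12 and Chst13 in the WT NSC libraries, a mean of 59.0% ± 0.6 (SD, n = 3). In the S89G-DMP1 NSC libraries they made 59.2, 59.0 and 56.0%, a mean of 58.0% ± 1.8 (SD, n = 3). The ranges overlapped, and 3 libraries against 3 cannot give an exact permutation p below 0.1. The epimerases Dse and Dsel, which turn chondroitin into dermatan sulfate, had log2 fold changes of -0.45 ± 0.32 and -0.18 ± 0.22 at 3.79 to 14.3 CPM over the 6 libraries and were not called (adjusted p = 0.397 and 0.657).

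Of the heparan chain enzymes, Extl3 fell while the polymerase pair Ext1 and Ext2 was not called. Extl3, which adds the first N-acetylglucosamine, had 280, 299 and 312 CPM in WT and 257, 247 and 205 in S89G-DMP1, without overlap. The log2 fold change was -0.33 ± 0.07 (adjusted p = 1.01e-04, edgeR), and the gene was called in every fit without 1 library and in DESeq2 (adjusted p = 0.00345). Ext1 had 79.2 to 85.1 CPM in WT and 86.0 to 91.0 in S89G-DMP1, all above WT, with an adjusted p of 0.384. Ext2 (-0.06) and Extl2 (-0.05) had adjusted p of 0.722 and 0.816.

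Among the heparan modification enzymes 1 of 7 tested was called. Ndst2, 1 of the N-deacetylases and N-sulfotransferases that begin the modification of the chain, had 29.5, 31.5 and 30.8 CPM in WT and 26.5, 22.3 and 19.7 in S89G-DMP1. The log2 fold change was -0.43 ± 0.15 (adjusted p = 0.039, edgeR). DESeq2 did not call it (adjusted p = 0.274), and it kept the call in only 1 of the 6 fits without 1 library, that without S89G-DMP1 replicate 1, with adjusted p between 0.0509 and 0.208 in the others. Ndst1, with 174 to 204 CPM in WT and 160 to 185 in S89G-DMP1, had an adjusted p of 0.0932 at -0.17 ± 0.07. Hs3st3b1, a 3-O-sulfotransferase, was the only member of this step with higher values in all S89G-DMP1 libraries (17.2 to 21.9 against 11.8 to 16.7 CPM). Its log2 fold change of 0.48 ± 0.19 had an adjusted p of 0.0701, which became 0.0478 without WT replicate 2. The C5-epimerase Glce (0.0011), the 2-O-sulfotransferase Hs2st1 (0.08) and the 6-O-sulfotransferases Hs6st1 (-0.04) and Hs6st2 (-0.24) were not called, with adjusted p from 0.256 to 0.998.

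Sulf2 changed with the smallest p of the 43 members. It encodes a secreted sulfatase that removes 6-O-sulfate groups from finished heparan sulfate, and it was the member with the highest level per length in WT NSCs, at 390 CPM per kilobase, ahead of Xylt1 (318) and Papss1 (87.5). The lengths are those that the deposited astrocyte FPKM values imply. With the union of annotated exons Sulf2 stayed at rank 1, Xylt1 moved to rank 3 and Chst7 to rank 2. Sulf2 had 708, 692 and 723 CPM in WT and 488, 460 and 426 in S89G-DMP1. Every WT library lay above every S89G-DMP1 library. WT was 1.55-fold higher, a log2 fold change of -0.63 ± 0.05 (adjusted p = 3.71e-15, edgeR), and the gene was called in all 15 alternative fits, at -0.58 to -0.76. Sulf1 had 0 to 5 counts in NSCs, so Sulf2 made nearly all of the endosulfatase transcript there, and Sulf1 made at most 0.286% per length in any NSC library.

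**Figure D2:**
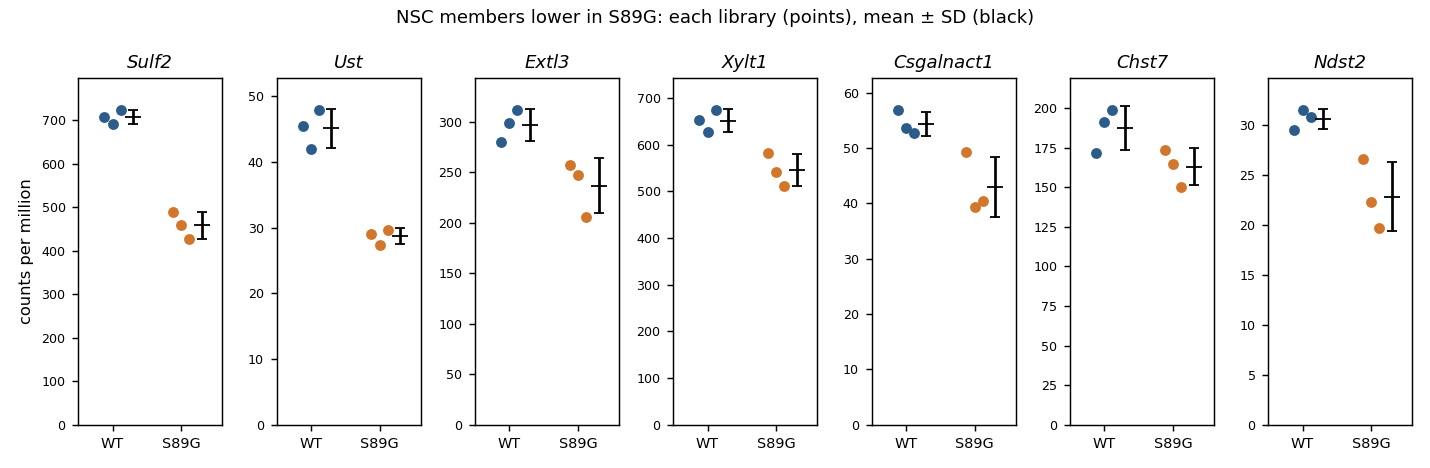
CPM of the 7 called members in each NSC library (points; WT blue, S89G-DMP1 orange; vertical axes start at 0), with the mean ± SD of 3 libraries in black. The genotypes do not overlap for 6 of them and overlap for Chst7.

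Among the suppliers, none was called. Papss1, which makes the activated sulfate used by all the sulfotransferases, had 176, 176 and 171 CPM in WT and 190, 196 and 190 in S89G-DMP1, all above WT, with a log2 fold change of 0.14 ± 0.07 and an adjusted p of 0.153. The UDP-glucose dehydrogenase Ugdh (-0.0017) and the sulfate donor transporter Slc35b2 (0.10) had adjusted p of 0.997 and 0.490.

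The promoters of the pair of members with the largest called changes are shown (RefSeq, GRCm38.p6, 250 bases before to 50 after the start, minus strand, with CCAAT and GGGCGG or their reverse complements in capitals). Promoter sequences were at hand for 4 of the 7 called members, and shared control of the pair was not tested. Sulf2 lies at chr2:166073089-166155663 and Ust at chr10:8204756-8518825 (GRCm38). RefSeq has 2 starts for Sulf2, of which the downstream one is given at chr2:166155236-166155535, and the Ust window is chr10:8518776-8519075.

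Sulf2: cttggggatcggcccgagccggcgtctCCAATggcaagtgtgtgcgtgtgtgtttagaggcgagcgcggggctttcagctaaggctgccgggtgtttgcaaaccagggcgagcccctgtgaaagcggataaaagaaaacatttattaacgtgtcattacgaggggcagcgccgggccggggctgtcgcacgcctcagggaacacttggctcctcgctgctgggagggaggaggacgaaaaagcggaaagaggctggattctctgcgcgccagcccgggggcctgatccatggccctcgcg

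Ust: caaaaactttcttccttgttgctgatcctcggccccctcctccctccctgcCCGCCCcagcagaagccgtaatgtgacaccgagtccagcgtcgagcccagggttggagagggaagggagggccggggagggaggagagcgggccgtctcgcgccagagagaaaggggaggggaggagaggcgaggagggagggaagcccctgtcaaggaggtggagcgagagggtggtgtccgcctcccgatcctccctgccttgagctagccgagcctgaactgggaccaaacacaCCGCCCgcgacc

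The Sulf2 window shown held CCAAT and no GGGCGG on either strand, whereas the window of its other start (chr2:166155634-166155933) held GGGCGG and TATAAA and no CCAAT. The Ust window held GGGCGG and no CCAAT. Of the 36 members with a promoter in the table, 27 held GGGCGG in 1 or more windows, 28 of 45 windows (62.2%) in all, against 35.7% of 32851 promoters of the same length. CCAAT was present in 20 of the 45 windows (44.4%) against 37.4% of all promoters, TATAAA in 2 (4.44%) against 13.6%, and CACGTG in 4 (8.89%) against 7.15%. Such matches are descriptions of the letters, not of binding.

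Fibroblast, meningeal and microglia markers were low in the NSC libraries, while some astroglial, oligodendrocyte precursor and neuron markers moved with the genotype. The 8 fibroblast and meningeal markers summed to 5.83 to 11.2 CPM in WT and 10.3 to 11.8 in S89G-DMP1 libraries, and the 6 microglia markers to at most 0.856 CPM. The 8 astrocyte markers summed to 1470 to 1518 CPM in WT and 1991 to 2043 in S89G-DMP1. All 6 of them that were tested lay above 0 and 3 were called, Aldh1l1 at 1.03. Of 4 tested oligodendrocyte precursor markers, Pdgfra (-0.84) and Cspg4 (-0.56) were lower. The part of these shifts in the member results was not tested.

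The neighbouring genes of the pathway gave context. Of 12 tested genes of the wider synthesis and sulfation list, 1 was lower and 0 higher. That was Bpnt1, which clears a by-product of sulfation (-0.36, adjusted p = 0.00325, edgeR), and DESeq2 did not call it. Of 17 tested degradation enzymes, 1 was lower, the hyaluronan-degrading protein Cemip (-1.23), and 0 higher. Among 21 tested core proteins, 3 were higher and 8 lower, or 52.4% called. The heparan sulfate cores Col18a1 (-1.04), Hspg2 (-0.61), Gpc1 (-0.58) and Agrn (-0.46) and the chondroitin sulfate cores Cspg4 (-0.56) and Vcan (-0.34) fell, as did Ncan (-0.17) and Dmp1 itself (-1.90). Ptprz1 (0.21), Bcan (0.18) and Sdc3 (0.17) rose, although without S89G-DMP1 replicate 1 the count of higher core proteins fell from 3 to 1, and limma on log2(TPM + 1) called 0 higher and 2 lower. Of 3 tested enzymes of hyaluronan and keratan sulfate, the sulfotransferase Chst2 was lower (-0.23, adjusted p = 0.0303, edgeR), a call that DESeq2 did not make.

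For the astrocytes there was 1 library per genotype, so no difference below has a replicate check, and intervals cover counting error only. The WT library held few counts of several astrocyte markers. Aqp4 had 8 counts in WT and 4051 in S89G-DMP1, Slc1a3 had 8 and 3877, Aldh1l1 had 47 and 1792, and Gfap had 90 and 901. For Aqp4 this direction is opposite to the study's report of less AQP4 mRNA and protein in S89G-DMP1 astrocytes. Those astrocytes were differentiated from NSCs, unlike the cortical cultures here. Of the 8 markers, 6 were at least 2-fold higher in S89G-DMP1, Gja1 was 0.53 on the log2 scale (1165 and 1913 counts) and S100b was lower (64 and 30 counts). Summed, the 8 made 117 CPM in WT, of which Gja1 held 92.0, and 1043 in S89G-DMP1, and the progenitor marker Sox1 was at 0 in WT. The 8 fibroblast and meningeal markers went the other way, 6160 CPM in WT and 2253 in S89G-DMP1, with 8 of 8 below a ratio of 1 and 7 at least 2-fold. Markers of other cells differed as well, in mixed directions within each list. In WT and S89G-DMP1, Cdh5 had 1917 and 23 counts and Flt1 404 and 790. Rgs5 had 2431 and 39 counts and Acta2 9152 and 35539. Pdgfra had 1755 and 100 and Olig1 4 and 2691. Cx3cr1 had 320 and 2372 and Tmem119 1434 and 699. Log2 ratios were above 0 for 2 of 5 counted endothelial and 1 of 4 mural markers. They were above 0 for 3 of 6 oligodendrocyte precursor and 5 of 6 microglia markers. The libraries also differed in sex-linked transcripts (Xist 12172 and 74 counts, Ddx3y 0 and 1277 counts in WT and S89G-DMP1). With 1 library each, genotype, cell makeup and sex cannot be told apart, and the libraries are called here by their labels.

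**Figure D3:**
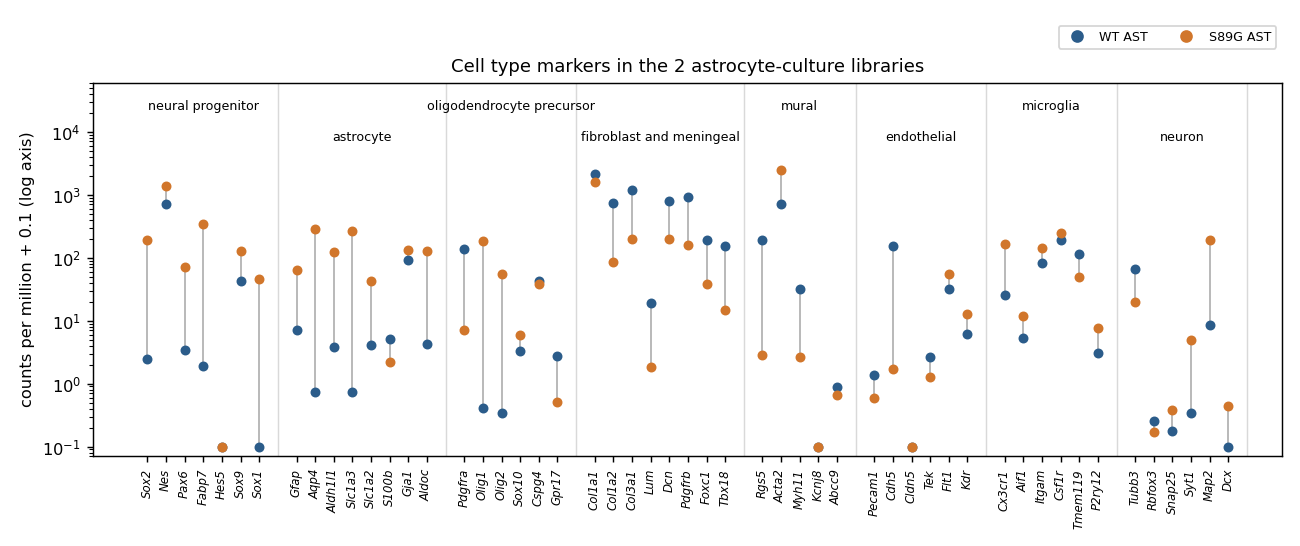
CPM + 0.1 (log axis) of marker genes in the astrocyte-culture libraries labelled WT (blue) and S89G-DMP1 (orange), grouped by the cell type they mark. Most astrocyte and progenitor markers are higher in the S89G-DMP1 library, and all 8 fibroblast and meningeal markers are higher in the WT library.

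In the astrocyte cultures, heparan modification enzymes made up most of the higher members, and chondroitin and dermatan enzymes most of the lower ones. Of the 41 members that reached 10 counts in 1 or both libraries, the library labelled S89G-DMP1 was at least 2-fold above WT for 7 and at least 2-fold below it for 11, 43.9% in all, against 30.1% of the 15680 genes counted (17.3% higher and 12.8% lower). Of the 7 higher, 5 modify heparan sulfate. None of the 11 lower was a heparan polymerase, and 6 build, sulfate or epimerize chondroitin or dermatan chains. Ratios were taken on CPM scaled by TMM factors, adding a prior count of 2. The median of the members was -0.44 and that of all genes 0.01. With library size alone, the medians were -0.15 and 0.30, 7 members were higher and 9 lower, and the split of all genes went from 2713 higher and 2010 lower to 3487 and 1515. Under this scale, B3gat3, Chst7, Ust, Ext1, Extl3, Ndst2 and Sulf2, all with ratios between -0.23 and -0.07, turned above 0. The remaining members, Chst13 (1 count in WT and 0 in S89G-DMP1) and Hs6st3 (0 and 7 counts), were too low.

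**Figure D4:**
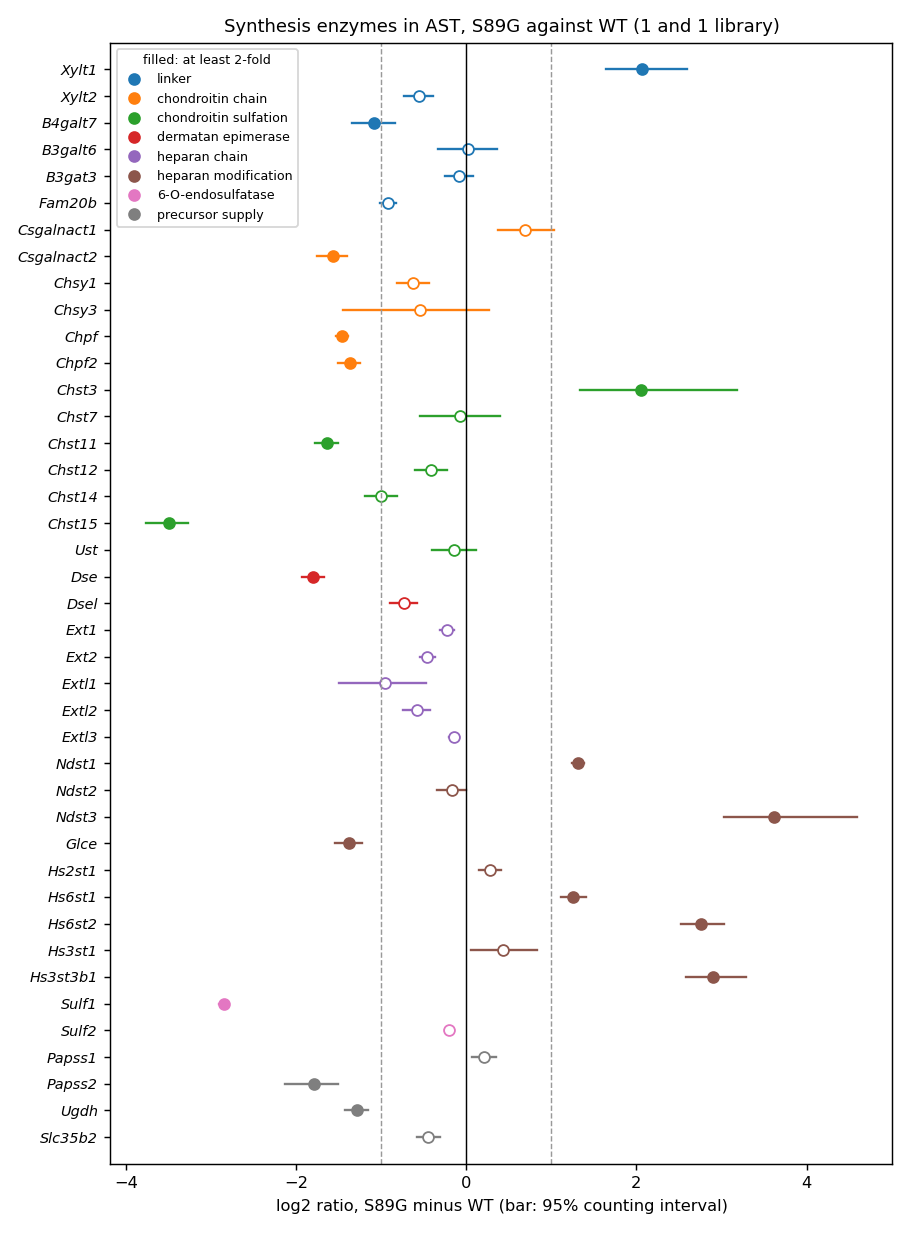
Log2 ratio of the S89G-DMP1 to the WT astrocyte library for the 41 counted members (horizontal axis) in the order of the synthesis steps (colours), with 95% intervals for counting error only. Filled points are at least 2-fold apart (dashed lines); those above 0 are mostly heparan modification enzymes and those below 0 include chondroitin chain and sulfation enzymes.

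The heparan modification enzymes were mostly higher, 7 of 9 above 0 and 5 at least 2-fold, with a median of 1.26. Ndst3 had 16 counts in WT (1.26 CPM) and 247 in S89G-DMP1 (17.2 CPM), a log2 ratio of 3.62 (95% counting interval 3.03 to 4.59). Hs3st3b1 had 76 and 658 counts (6.00 and 45.7 CPM, log2 ratio 2.90, interval 2.58 to 3.29), and reads could be shared with its near copy Hs3st3a1. Hs6st2, which is X-linked, had 11.4 and 77.8 CPM (2.76, interval 2.52 to 3.04).

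These 3 had the largest ratios of all counted members. Ndst1 had 184 CPM in WT and 458 in S89G-DMP1 (1.31, interval 1.24 to 1.38), and Hs6st1 had 43.4 and 104 CPM (1.26, interval 1.12 to 1.40). Glce, the epimerase, was lower, at 87.4 and 33.5 CPM (-1.38, interval -1.54 to -1.23). Hs2st1 (0.28), Hs3st1 (0.44) and Ndst2 (-0.17) were under 2-fold. The chain enzymes Ext1 (-0.23), Ext2 (-0.46), Extl1 (-0.95), Extl2 (-0.58) and Extl3 (-0.14) were all below 0 and all under 2-fold.

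The chondroitin chain enzymes were lower in 5 of 6 cases. Chpf, a polymerase subunit and rank 3 of the members in level per length in the WT library (163 CPM per kilobase), had 399 CPM in WT and 145 in S89G-DMP1 (-1.46, interval -1.54 to -1.39). Chpf2 had 123 and 47.3 CPM (-1.37, interval -1.51 to -1.24), and Csgalnact2 had 76.4 and 25.7 CPM (-1.57, interval -1.75 to -1.40). Csgalnact1 was the exception, at 9.48 and 15.3 CPM (0.69, interval 0.37 to 1.03), and Chsy1 (-0.62) and Chsy3 (-0.54) were under 2-fold.

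In sulfation of chondroitin and dermatan the largest difference was that of Chst15. It had 1537 counts in WT (121 CPM) and 153 in S89G-DMP1 (10.6 CPM), 11.4-fold lower, a log2 ratio of -3.50 (interval -3.76 to -3.27). Chst11 had 134 and 43.2 CPM (-1.63, interval -1.77 to -1.50), and Chst14 lay just outside the 2-fold limit at -0.998. Chst3 was the only one of this group that was at least 2-fold higher, from 13 counts in WT (1.03 CPM) to 68 in S89G-DMP1 (4.72 CPM), with a log2 ratio of 2.05 and a wide interval of 1.33 to 3.18. Chst12 (-0.41), Chst7 (-0.07) and Ust (-0.14) were under 2-fold. The epimerase Dse had 146 and 41.9 CPM (-1.80, interval -1.94 to -1.67), and Dsel was at -0.74.

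At the linker, Xylt1 had 46 counts in WT (3.63 CPM) and 225 in S89G-DMP1 (15.6 CPM), 4.30-fold higher (2.06, interval 1.64 to 2.59). B4galt7, just inside the limit, had 29.5 and 13.8 CPM (-1.08, interval -1.35 to -0.84). Xylt2 (-0.56), B3galt6 (0.02), B3gat3 (-0.09) and Fam20b (-0.92) were under 2-fold.

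Sulf1 was the member with the highest level per length in the WT astrocyte library, at 534 CPM per kilobase, ahead of Sulf2 (255) and Chpf (163). With union exon lengths Sulf1 stayed at rank 1, Chpf moved to rank 2 and Sulf2 to rank 3. Sulf1 had 19838 counts in WT (1567 CPM) and 3122 in S89G-DMP1 (217 CPM), 7.23-fold lower, with a log2 ratio of -2.85 (interval -2.91 to -2.80). Sulf2 had 463 and 403 CPM (-0.20, interval -0.25 to -0.15). Of the suppliers, Papss2 had 28.0 and 7.98 CPM (-1.79, interval -2.13 to -1.50) and Ugdh had 114 and 46.7 CPM (-1.28, interval -1.42 to -1.15), while Papss1 (0.20) and Slc35b2 (-0.44) were under 2-fold.

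Within families, and for the pair of Chst15 and Ust, the shares of the enzymes differed between the astrocyte libraries. In the Sulf family and for Chst15 and Ust, the enzyme with the higher level differed per length, with union exon lengths and without length. Dse made 58.8% in WT and 40.6% in S89G-DMP1 of Dse and Dsel per length, but 73.1% and 56.6% with union exon lengths. Per length, Sulf1 made 67.7% of the Sulf transcript in WT (95% counting interval 67.0 to 68.3%) and 24.9% in S89G-DMP1 (24.1 to 25.8%). Chst15 made 89.1% (87.7 to 90.4%) and 44.1% (39.2 to 49.2%) of Chst15 and Ust. Csgalnact1 made 20.5% (17.6 to 23.8%) and 55.4% (51.2 to 59.4%) of the Csgalnact pair, but with union exon lengths, a scale added after the data had been seen, it made 11.7% and 38.9%, below Csgalnact2 in both libraries. The 6-O share of the chondroitin 4-O and 6-O sulfotransferases was 5.38% (4.37 to 6.61%) in WT and 11.4% (9.63 to 13.3%) in S89G-DMP1, where the NSC libraries held 56.0 to 59.5%. The NSC and astrocyte tables were made by different pipelines, and their levels are set side by side only.

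**Figure D5:**
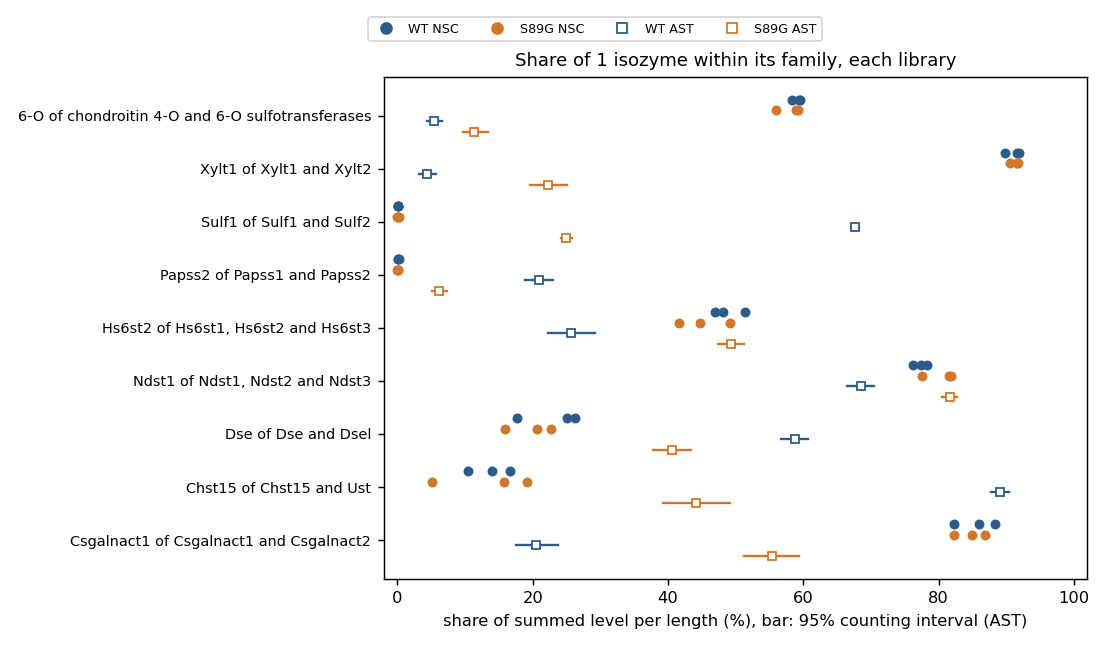
Share of the named enzyme in the summed level per length of its family (horizontal axis, %), in each NSC library (filled circles) and astrocyte library (open squares; bars are 95% counting intervals), WT in blue and S89G-DMP1 in orange. Chst15 is set against Ust as a pair, not as a family. The NSC genotypes overlap in all 9 comparisons, and the astrocyte intervals are apart in all 9.

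In several families the share in the S89G-DMP1 astrocyte library lay closer to the NSC range than that in the WT library. Xylt1 made 4.31% of the xylosyltransferase level in WT astrocytes and 22.2% in S89G-DMP1 astrocytes, against 89.8% or more in every NSC library. Papss2 made 20.9% and 6.13%, against at most 0.262% in NSCs, and Ndst1 made 68.5% and 81.6% of the Ndst level, against 76.2 to 81.9% in NSCs. The astrocyte and progenitor markers moved in the same direction between these libraries, and their part in the shares was not tested.

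Side by side, 36 members were tested in NSCs and counted in astrocytes. Of these 22 were lower in S89G-DMP1 in both, 4 higher in both, 6 lower in NSCs and higher in astrocytes, and 4 the reverse. Under library-size scaling of the astrocyte counts, a count added after the data had been seen, these numbers were 16, 5, 12 and 3. Of the 7 members called lower in NSCs, none was at least 2-fold lower in the astrocyte libraries. Xylt1 and Csgalnact1 were above 0 there, and all 7 were under library-size scaling. In the astrocyte comparison the wider lists also differed: of 28 counted core proteins 11 were at least 2-fold higher (among them the chondroitin sulfate cores Ncan, at 6.05, and Bcan, at 4.05) and 5 lower, among them the stromal cores Bgn (-2.73) and Dcn (-2.04). Of 21 degradation enzymes, 7 were at least 2-fold lower, led by Cemip (-3.23), although only 3 stayed at least 2-fold lower with library size alone. Of 17 counted genes of the wider synthesis and sulfation list, 1 was higher, the sulfotransferase Chst8 (2.17), and 3 lower, among them the xylose phosphatase Pxylp1 (-1.89). Of 9 enzymes and cores of hyaluronan and keratan sulfate, 3 were higher and 3 lower, among them the hyaluronan synthase Has2 (-3.27).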

How the data were processed

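The genotype and cell type of each library were taken from its label. The members and lists were chosen with earlier results of these data known. For NSCs, the authors aligned reads with HISAT2 and deposited raw read counts per gene (featureCounts, GRCm38, per the submitters' processing notes) and TPM values (StringTie). For astrocytes, the authors removed adapter-containing and low-quality reads, aligned the rest with TopHat2 2.0.9 and Bowtie2 2.0.6, and deposited raw counts and FPKM values. The genome build and counting program of the astrocyte table are not given in the sources used here, nor whether counting used strand, so reads of overlapping antisense genes cannot be told apart. The 2 tables were normalized separately, and tests and ratios were made within each. The number of columns of no sample was 0.

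Counts were analysed in R 4.3.3 with edgeR 4.0.16 (filterByExpr with a minimum count of 10, TMM factors, quasi-likelihood test, genotype alone in the model, adjusted p under 0.05 over all genes tested by Benjamini-Hochberg). SE is the log2 fold change divided by the root of F. Astrocyte ratios were taken on CPM scaled by TMM factors, adding a prior count of 2, over genes that reached 10 counts in 1 or both libraries, with a 2-fold limit and exact binomial 95% intervals. Intervals and limits of counts of 0 (3 counts) cover counting error only. Levels per length used the gene length that the deposited counts and FPKM imply. Shares in astrocytes have 95% intervals from Poisson variances on the log-odds scale.

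Values per library are given for members past the NSC threshold, at least 2-fold apart in astrocytes, among the 3 highest per length in WT, or of opposite sign in the cell types, and genes of the other lists are examples past the same limits. Chpf2, Ext1, Hs3st3b1 and others outside this rule were chosen after their values were seen. Alternatives were DESeq2 1.42.0, library size alone, upper-quartile and RLE factors, other filters, limma 3.58.1 on log2(TPM + 1) and log2(TPM + 0.1), a prior count of 0.5, the deposited astrocyte values as log2(FPKM + 0.1) and log2(FPKM + 1), 4-fold and 1.5-fold limits, a replicate block, and fits without each library in turn. Gene positions are those of GENCODE for GRCm38. The NSC and astrocyte procedures were tested on simulated data with 200 changed genes. Of 23 genes in the wider synthesis and sulfation list, not all of which act on these chains, 22 were matched. Some genes of the marker and degradation lists are not reported here.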

Additional observations from a re-analysis of the deposited data

Results flagged for a closer look

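Xylt1, Csgalnact1 and Ext1 had values of opposite sign in the cell types, with every NSC library of S89G-DMP1 on 1 side of every WT library. Xylt1 had a log2 fold change of -0.26 in NSCs and a log2 ratio of 2.06 in astrocytes. Csgalnact1 had -0.34 and 0.69. Ext1 had 0.12 and -0.23, and its astrocyte ratio turned to 0.062 with library size alone. The difference between the cell types was not tested for any of the 3, and the astrocyte values rest on 1 library per genotype with unlike cell type markers.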

How the results depend on the processing

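Over 15 alternative NSC fits, the count of members called lower was 4 in DESeq2 and without a filter on low counts, and 1, Sulf2, in limma on log2(TPM + 1) and on log2(TPM + 0.1), and stayed at 7 with RLE factors, upper-quartile factors, library size alone and at least 10 counts in every library. With 1 library left out it was 4 to 7, 4 without S89G-DMP1 replicate 2 or WT replicate 2. The count called higher was 0 in every alternative except without WT replicate 2, where it was 1 (Hs3st3b1), a range of 0 to 1 over the fits without 1 library. Sulf2 kept its call in 15 of 15 alternatives, Ust, Extl3 and Xylt1 in 13 each, and Csgalnact1, Chst7 and Ndst2 in 7, 7 and 6. In limma on TPM the Chst7 difference turned to 0.36 (+ 1) and 0.43 (+ 0.1), and the cause was not tested. Replicate numbers shared by the genotypes gave correlations of deviations of 0.033, -0.004 and -0.011, so the numbers were not taken to pair the libraries. With the number as a replicate block, 7 members were lower and 0 higher, and the count of all genes called went from 792 higher and 981 lower to 829 and 1016. Not every library correlated best with its own number.

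In astrocytes, a 4-fold limit left 2 lower members and 5 higher. Ratios that turned above 0 on the scale of library size, on log2(FPKM + 1) and on log2(FPKM + 0.1) were B3gat3 (0.21, 0.20 and 0.21), Chst7 (0.21, 0.16 and 0.21), Ust (0.15, 0.12 and 0.14), Ext1 (0.062, 0.061 and 0.062), Extl3 (0.15, 0.15 and 0.15), Ndst2 (0.12, 0.11 and 0.12) and Sulf2 (0.093, 0.093 and 0.093), since these scales raise the median of all genes. The 6-O share without length was 40.4% in WT and 39.4% in S89G-DMP1 NSCs, and 3.80% in WT and 12.2% in S89G-DMP1 astrocytes. With union exon lengths, a scale added after the data had been seen, it was 6.35% in WT and 13.5% in S89G-DMP1 astrocytes. With 1 NSC library left out the share stayed at 58.8 to 59.4% in WT and 57.5 to 59.1% in S89G-DMP1. Counting depth in NSCs limits the 7 untested members and those under 10 CPM, such as Chst12 and Chst15. In astrocytes the error between cultures is unknown.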
